A study of Mus musculus with 18 samples.

Results

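The genes described here are 35 genes of glycolysis and of the response to low oxygen in mouse cells. They were taken by name, 21 for glucose uptake, the enzymes and regulators of glycolysis and the handling of pyruvate and lactate, and 14 for the hypoxia-inducible factor (HIF) pathway. The list was chosen with earlier results of these data known. Counts of called members beside the shares of all genes therefore describe the list and are no independent test. All 35 had a line in both deposited tables, which hold 55401 lines for endothelial cells and 22612 for EO771 cells.

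Transcripts were sequenced in 18 mouse libraries, 3 for each of 6 groups. 4 groups were endothelial cells sorted from wild-type female C57BL/6 mice as CD45-negative cells with high CD31. Blood vessel endothelial cells (BECs), negative for the addressin PNAd, came from the mammary fat pad of mice without a tumour (BEC normal) or from EO771 tumours grown in that fat pad (BEC tumour). High endothelial cells (HECs), positive for PNAd, came from inguinal lymph nodes of mice without a tumour (HEC normal) or with one (HEC tumour), and the labels name the tissue of the latter as metastases in the node. HECs line the venules through which lymphocytes enter lymph nodes. The remaining groups were EO771 cells, a mouse breast cancer line in culture, treated with vehicle or with 12-HETE, a lipid made by the lipoxygenase ALOX12 from arachidonic acid. HECs and BECs came from different organs and were freed with different enzymes for different times, so cell type, tissue and digestion cannot be told apart, and the same holds for tumour and fat pad BECs. The study describes its replicates as independent experiments. The labels do not say which libraries came from separate mice or cultures, so p-values measure the spread between these samples, which may be partly technical.

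Glycolysis splits glucose into pyruvate in the cytosol and yields ATP without oxygen, and lactate dehydrogenase turns the pyruvate into lactate, which leaves the cell through a transporter. Endothelial cells are known to rely on glycolysis even though they are bathed in oxygenated blood. When oxygen is plentiful, the EGLN prolyl hydroxylases mark the HIF alpha subunits, encoded by Hif1a and Epas1, for destruction. When it is scarce, the subunits persist, pair with ARNT and bind DNA at the core letters ACGTG or GCGTG beside genes for glucose uptake, glycolysis, mitochondrial clearance and vessel growth.

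Values in the endothelial table summed to between 56410964 and 79357993 per library and those in the EO771 table to between 17294591 and 18624179. Low values in the endothelial table pile up at multiples of about 3.75, so 1 unit there is less than 1 read. Values are called normalised after division by DESeq2 size factors, with mean ± SD over 3 libraries. TPM, which also divides by the exon length of the gene, is used wherever genes are compared with each other. That length merges the exons of all annotated transcripts of a gene, so orders and shares between genes depend on it. In these bulk samples, fewer cells of a type and less RNA per cell cannot be told apart. Markers checked the labels: the summed level of 8 high endothelial genes was 1139 to 1484 CPM (counts scaled to one library total) in HEC normal and 2490.3 to 3327 in HEC tumour, against 387 to 396 in BEC normal and 286 to 305 in BEC tumour. In both BEC groups the defining genes Glycam1 and Chst4 were at 0 in every library, and in both HEC groups Glycam1 was the most abundant of the list. In HEC normal, Madcam1 and Ackr1 of the same list were at 0 in all libraries.

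Promoters of the members were searched for the HIF core letters in a window from 250 bases before to 50 bases after the transcript start, on both strands, in RefSeq's mouse sequences (GRCm38.p6). Of the 35 members, 33 had an entry, with 50 starts in all. ACGTG or its reverse complement CACGT stood in 54.0% of the 50 windows, against 19.6% of 32851 windows of all genes. GCGTG or CACGC stood in 52.0%, against 32.4% of all windows. Either motif was present in 39 of 50, or 78%, against 43.8%. Windows of neighbouring starts of a gene overlap, as in Eno1, Aldoa and Pfkm, so some sites were counted more than once. Both motifs hold the letters CG, and the windows were not matched for base composition. The members were listed as genes of glycolysis and of the HIF pathway, and HIF is known to bind beside such genes. The higher shares may therefore come from how the list was made and are not a separate result. Overlapping matches, as where both strands match in the letters CACGTG, were counted as 1 site. By that count 54.0% of member windows and 17.2% of all windows held 2 or more sites. A match describes letters in a window and does not show binding there. Below stand the promoters of Ankrd37, Adm and Bnip3, which with Ndrg1 were the members called in 4 or more of the 6 comparisons, and those of Ldha (its most upstream start) and Slc16a3, which make and export lactate. Ndrg1 is named only. Sequences run 5′ to 3′ on the gene's strand, and capitals mark the motif letters.
Ankrd37 (chr8:45999801-46000100, minus strand): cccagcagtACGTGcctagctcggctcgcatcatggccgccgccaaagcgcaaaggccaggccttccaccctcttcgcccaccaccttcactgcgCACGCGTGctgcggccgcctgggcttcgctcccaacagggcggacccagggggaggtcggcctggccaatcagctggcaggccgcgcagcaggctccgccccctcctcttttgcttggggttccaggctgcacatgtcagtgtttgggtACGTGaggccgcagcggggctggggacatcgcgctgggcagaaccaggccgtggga
Adm (chr7:110627407-110627706, plus strand): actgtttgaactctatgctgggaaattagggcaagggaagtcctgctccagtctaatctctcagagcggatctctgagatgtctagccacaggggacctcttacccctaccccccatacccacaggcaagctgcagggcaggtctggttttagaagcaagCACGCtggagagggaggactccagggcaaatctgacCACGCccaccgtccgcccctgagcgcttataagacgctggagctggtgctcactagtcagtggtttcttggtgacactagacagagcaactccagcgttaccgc
Bnip3 (chr7:138909457-138909756, minus strand): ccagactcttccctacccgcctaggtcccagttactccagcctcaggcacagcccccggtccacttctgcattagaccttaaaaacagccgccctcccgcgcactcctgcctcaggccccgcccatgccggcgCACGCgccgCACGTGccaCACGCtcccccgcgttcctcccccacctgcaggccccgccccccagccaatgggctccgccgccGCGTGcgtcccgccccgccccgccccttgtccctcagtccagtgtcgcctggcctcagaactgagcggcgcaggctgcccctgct
Ldha (chr7:46845554-46845853, plus strand): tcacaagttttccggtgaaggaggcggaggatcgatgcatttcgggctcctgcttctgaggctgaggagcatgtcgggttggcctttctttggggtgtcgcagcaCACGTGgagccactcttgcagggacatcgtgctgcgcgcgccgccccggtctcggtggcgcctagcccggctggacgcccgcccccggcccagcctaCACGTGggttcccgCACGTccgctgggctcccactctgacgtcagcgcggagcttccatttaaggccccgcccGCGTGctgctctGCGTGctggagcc
Slc16a3 (chr11:120948817-120949116, plus strand): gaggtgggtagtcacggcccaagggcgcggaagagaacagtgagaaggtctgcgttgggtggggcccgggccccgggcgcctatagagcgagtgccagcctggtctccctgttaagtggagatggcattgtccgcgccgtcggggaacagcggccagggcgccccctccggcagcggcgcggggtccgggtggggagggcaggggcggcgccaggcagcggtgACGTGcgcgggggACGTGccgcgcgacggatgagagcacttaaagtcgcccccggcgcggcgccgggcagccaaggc
These windows held 3 sites in Ankrd37, 2 in Adm, 4 in Bnip3, 5 in Ldha and 2 in Slc16a3. The other start of Ldha held 2. Members not shown ranged from 0 sites, as in Gpi1, Tpi1 and Eno2, over 1, as in Pfkfb4, Car9 and Egln3, to 4, as in Pfkp and P4ha2. Ldha and Bnip3 were among the members with the palindrome CACGTG, which stood in 10% of member windows and 7.2% of all windows.

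Per unit of length, the endothelial cells held far more transcript of the abundant glycolytic enzymes than of the HIF pathway. In HEC normal, Aldoa, the main aldolase, was at 2314 ± 98.3 TPM, Pgk1 (phosphoglycerate kinase) at 1910.5 ± 115 and Pkm (pyruvate kinase) at 1325 ± 18.4. Ldha, the lactate dehydrogenase subunit that favours lactate, was at 743 ± 46.2 TPM, Pgam1 (phosphoglycerate mutase) at 672 ± 30.1, Tpi1 (triosephosphate isomerase) at 664 ± 43.3 and Eno1 (enolase) at 511 ± 9.85. In BEC normal, Pkm (1256 ± 71.2 TPM), Pgk1 (1228 ± 63.6) and Aldoa (1085 ± 93.5) were highest. By the merged exon lengths used, the first pair did not differ beyond their spread. The order of genes in both groups depends on those lengths, and orders by transcript length were not computed. Gapdh was left out of these orders, because in the endothelial table its own line held only a small part of the sum of the gene and its near-identical copies (given with the copies below). Among the hypoxia genes, Adm and Ndrg1 led in HEC normal at 235 ± 33.4 and 212 ± 19.8 TPM, whereas Egln3 led in BEC normal at 148 ± 2.93 TPM. Summed over the 21 glycolysis members, values took 8654, 10098 and 9751 CPM in the libraries of BEC normal and 7793, 8197 and 8301 in those of BEC tumour. The sums were 12727, 12125 and 12072 in HEC normal and 11736, 11498 and 11356 in HEC tumour, above every BEC library. These sums take Gapdh from its own line and leave the copies out. Sums over the 14 hypoxia members were also higher in HECs, at 1999.8, 1712 and 1721 CPM in HEC normal and 1459, 1426 and 1454 in HEC tumour. BEC normal had 955, 932 and 937 and BEC tumour 753, 756 and 739.

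**Figure D1:**
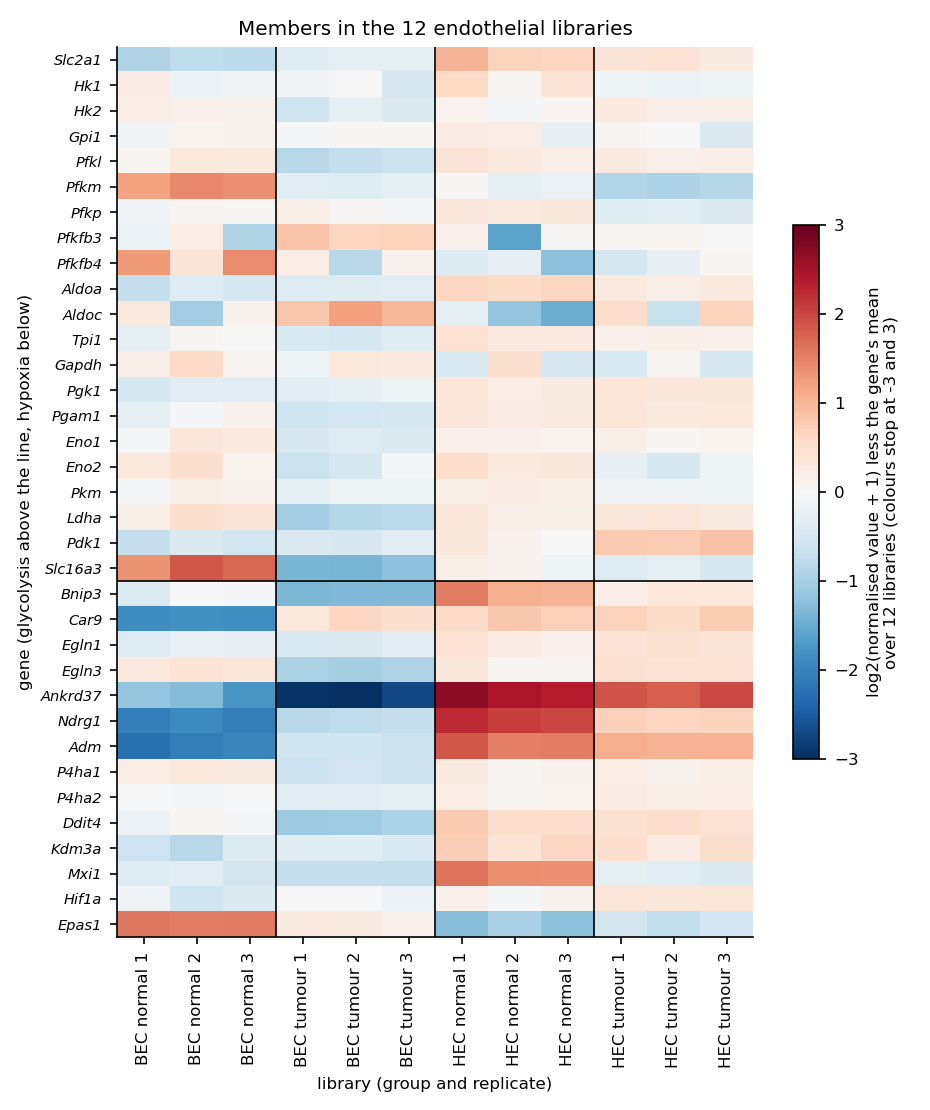
Each row is a member and each column 1 of the 12 endothelial libraries, coloured by log2(normalised value + 1) less the gene's mean over the 12 libraries. Ankrd37, Ndrg1 and Adm span the widest range, low in all 6 BEC libraries and high in all 6 HEC libraries, while Epas1 runs the other way.

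The first question was how HECs differ from BECs in these genes. A gene was called when DESeq2 gave an adjusted p under 0.05 and a fold over 2. In mice without tumours, 9 of the 35 members were higher and 4 lower in HECs, where 17.1% of all 18511 genes tested were called higher and 15.1% lower. The median log2 fold change of the members was 0.325, against 0.005 for all genes. At adjusted p under 0.05 whatever the fold, 19 members were higher and 5 lower, beside 31.4% and 31.9% of all genes. The 9 called higher were 7 of the 14 hypoxia members and 2 of the 21 glycolysis members. With a tumour, 8 members were higher in HECs and 0 lower, beside 11.2% and 10.7% of all genes. At adjusted p under 0.05 whatever the fold, 23 members were higher and 3 lower, beside 25.9% and 28.4% of all genes. At an unadjusted p under 0.05, 3 members were lower, beside 30.1% of all genes, and edgeR's quasi-likelihood test also called 0 lower. Here the members' median was 0.61, against 0.006, and 24 of the 35 had all 3 HEC libraries above all 3 BEC libraries, as did 30.9% of all genes. Both comparisons use different libraries, but each shares its libraries with the tumour comparisons that follow. The sum of 10 myeloid marker genes, nearly all of it Cd68 outside BEC tumour, was 485 to 511 CPM in HEC normal, 360.0 to 377 in HEC tumour and 108 to 129 in BEC normal, with C1qb at 0 in both HEC groups. In BEC tumour it was 1629 to 2238. The sum of 9 fibroblast and pericyte genes was 25.4 to 26.5 CPM in HEC normal and 11.1 to 12.2 in HEC tumour, below 845 to 855 in BEC normal and 90.9 to 122 in BEC tumour. Of these genes Lum was at 0 in HEC normal and BEC normal, and Rgs5 in HEC tumour. The sum of 7 epithelial and tumour cell genes, mostly Krt19 in HECs, was 27.9 to 31.2 CPM in HEC normal and 31.2 to 34.1 in HEC tumour, against 3.61 to 6.92 in BEC normal and 19.95 to 93.6 in BEC tumour, with Krt5 at 0 in both HEC groups. The sum of 5 lymphatic endothelial genes was 282 to 338 CPM in HEC normal and 350 to 360 in HEC tumour. It was 341 to 362 in BEC normal and 201 to 222 in BEC tumour. The part of all these genes in the differences between cell types was not tested.

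Ankrd37, a small ankyrin repeat protein and a HIF target, showed the widest gap of all members in tumour mice and came after Ndrg1 in mice without tumours. Its normalised values were 112, 104 and 76.2 in BEC normal and 1658, 1400.5 and 1306 in HEC normal. With a tumour they were 32.5, 25.4 and 38.4 in BECs and 958, 898 and 1016 in HECs. All 6 HEC libraries lay above all 6 BEC libraries, and HECs were 14.9-fold higher without a tumour (log2 fold change 3.901 ± 0.18, SE, adjusted p = 4.63e-99). The difference with a tumour was 29.9-fold (4.902 ± 0.21, adjusted p = 3.18e-114). Exons of Ankrd37 (chr8:45996902-46005707, minus strand, GRCm38) overlap Ufsp2 and Lrp2bp on the opposite strand over 26.4% of their length. Those genes hold values 3.6 times as large in sum, and the strand used in counting is not stated, so part of these values may belong to them.

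Ndrg1, a stress-responsive protein long used as a readout of hypoxia, had 2123, 2345 and 2107 in BEC normal against 41786, 37101 and 35271 in HEC normal. HECs were 17.4-fold higher (4.12 ± 0.08), with an adjusted p too small for the software to write. With a tumour the groups came closer, at 4993, 5174 and 5435 in BECs and 14506, 13837 and 14147 in HECs (1.45 ± 0.08, adjusted p = 2.38e-77). The libraries of HECs and BECs stayed apart in both settings.

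Adm, the peptide adrenomedullin that widens vessels and tightens endothelial barriers, followed the same order of groups. BEC normal had 701, 789.6 and 844 and HEC normal 11958, 9417 and 9666, a 13.3-fold difference (3.73 ± 0.11, adjusted p = 4.75e-272). With a tumour the values were 2191, 2204 and 2122 in BECs and 7058, 6872 and 6844 in HECs (1.67 ± 0.10, adjusted p = 6.15e-58). Here too all 6 HEC libraries exceeded all 6 BEC libraries. Bnip3, which directs mitochondria to autophagy, had 1535, 2029 and 1950.4 in BEC normal and 5912, 4219.8 and 4100.5 in HEC normal (1.37 ± 0.15, adjusted p = 3.36e-18). It had 801, 814 and 814 in BEC tumour and 2318, 2549 and 2521 in HEC tumour (1.605 ± 0.16, adjusted p = 8.29e-24), again without overlap. Exons of Bnip3 overlap Gm45507 on the opposite strand, which was at 0.00% of the value of Bnip3, and 4 near-identical copies elsewhere in the genome held 9.88% of it.

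Car9, Mxi1 and Kdm3a, further HIF targets, were called in mice without tumours and differed by 0.196 ± 0.15, 0.33 ± 0.09 and 0.82 ± 0.13 with a tumour, under the fold threshold. Car9, a carbonic anhydrase that disposes of acid at the cell surface, had 59.1, 61.2 and 59.9 in BEC normal and 326, 382 and 361 in HEC normal (2.57 ± 0.18, adjusted p = 8.38e-45). In tumour mice its libraries overlapped, with 272, 334 and 305 in BECs and 353, 321 and 371 in HECs. About 9.3% of its exons overlap Gm12454 on the opposite strand, whose value was 60.87% of that of Car9. Mxi1, a relative of MAD proteins that opposes MYC, had 1801, 1871 and 1607 against 7246, 6156 and 6128 (1.89 ± 0.09, adjusted p = 1.17e-92). Kdm3a, an oxygen-dependent histone demethylase, had 2331, 2005 and 2696 against 5952, 4734 and 5458 (1.199 ± 0.13, adjusted p = 1.11e-19). In all 3 genes, no HEC normal library overlapped a BEC normal library. Ddit4, an inhibitor of mTOR signalling, passed the threshold only in tumour mice, at 2681, 2737 and 2952 in BECs and 7807, 8228 and 7724 in HECs (1.51 ± 0.09, adjusted p = 6.04e-57). Its difference without a tumour was 0.66 ± 0.09, adjusted p = 5.63e-12, in the same direction. P4ha1 and P4ha2, the collagen prolyl hydroxylases, were called in neither comparison, with log2 fold changes between −0.11 and 0.81.

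**Figure D2:**
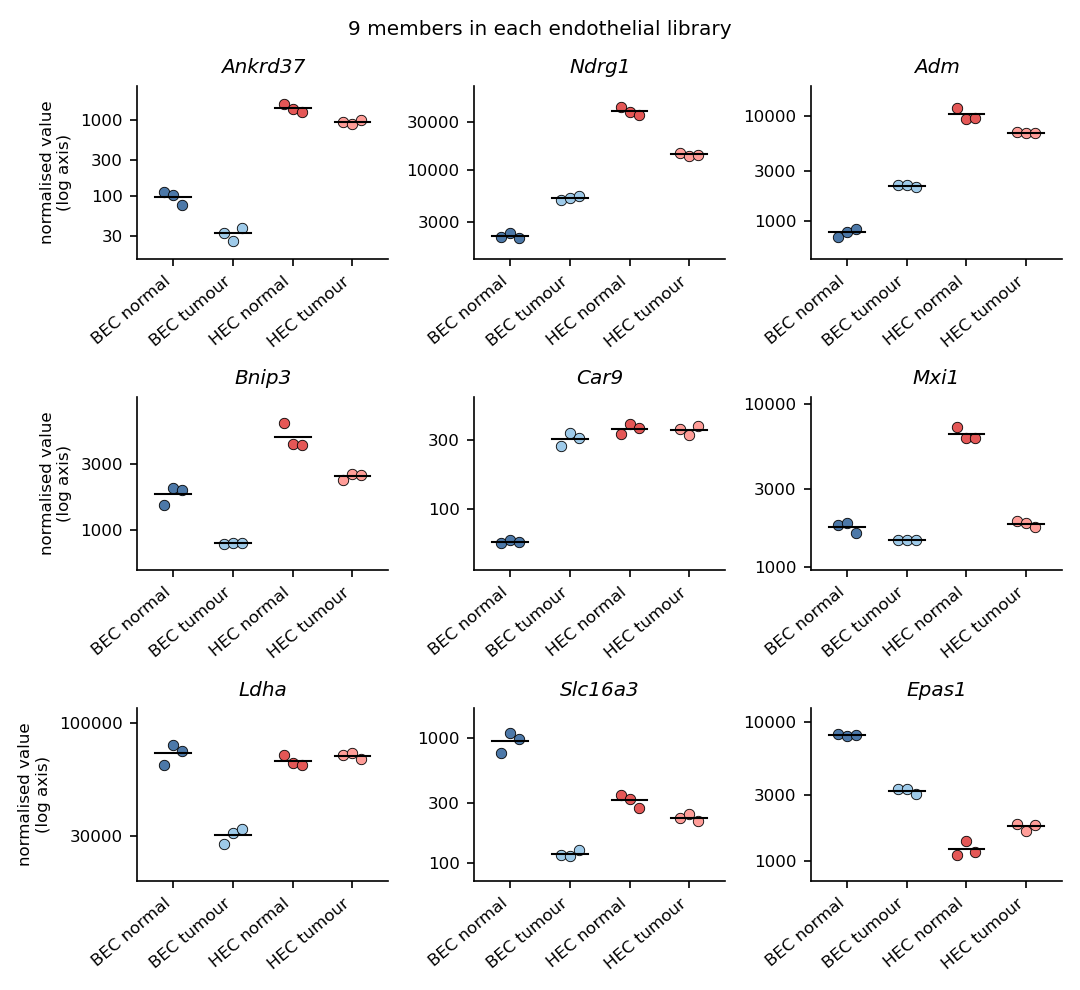
Points are single libraries and bars the means of 3, on a log axis of normalised values, for 9 members in the 4 endothelial groups. Ankrd37, Ndrg1, Adm and Bnip3 lie higher in HECs than in BECs of the same tumour status, Mxi1 is high in HEC normal alone, and Ldha and Slc16a3 are lowest in BEC tumour.

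Genes of glucose handling separated the cell types less. Slc2a1, the glucose transporter of the plasma membrane, had 7128, 7899.5 and 7671 in BEC normal and 26938, 21028 and 20723 in HEC normal. HEC libraries were all higher, by 3.03-fold (1.598 ± 0.10, adjusted p = 2.69e-53), and with a tumour the difference was 0.67 ± 0.10, adjusted p = 3.34e-10, under the fold threshold. Aldoa had 73971, 92148 and 86739.8 in BEC normal and 185437, 176034 and 188837 in HEC normal (1.12 ± 0.08, adjusted p = 1.42e-42), and 0.62 ± 0.08, adjusted p = 2.26e-13 with a tumour. Pfkm, the muscle form of phosphofructokinase, went the other way, with 7145, 8363 and 7996 in BEC normal and 3179.6, 2563 and 2688 in HEC normal (−1.48 ± 0.10, adjusted p = 7.85e-53). Exons of Pfkm overlap Senp1 on the opposite strand and Gm26513 on the same strand over 10.7% of their length, and those genes held 148.5% of its value. Pfkfb4, whose enzyme sets the level of a phosphofructokinase activator, was also lower in HEC normal, at 370.2, 413 and 208 against 1195, 649.6 and 1324 (−1.68 ± 0.36, adjusted p = 9.22e-06). Its replicates spread widely, as did those of Pfkfb3, with 1400.4, 1879 and 858 in BEC normal and 1780.0, 532 and 1659 in HEC normal.

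Genes at the lactate end of the pathway differed in both directions. Ldha had 27485, 31180.2 and 32379 in BEC tumour and 71538, 72700.2 and 67953 in HEC tumour. No libraries overlapped, and HECs were 2.33-fold higher (1.22 ± 0.09, adjusted p = 1.30e-37), whereas without a tumour the groups overlapped (−0.12 ± 0.09, adjusted p = 0.273). Pdk1, the kinase that keeps pyruvate out of the mitochondrial cycle, had 2479, 2421 and 2669 in BEC tumour and 5834, 5693 and 6183 in HEC tumour (1.23 ± 0.10, adjusted p = 1.10e-32). Slc16a3, the lactate exporter of glycolytic cells, was lower in HEC normal than in BEC normal, at 348, 328 and 275 against 763, 1105 and 988 (−1.59 ± 0.18, adjusted p = 1.95e-18). With a tumour it was the BEC libraries that were low, at 116, 113 and 128 against 231, 247 and 217 in HECs (0.96 ± 0.19, adjusted p = 2.28e-06). That last difference passed the fold threshold without BEC tumour replicate 3 (1.01) or without HEC tumour replicate 3 (1.004).

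Oxygen sensors and HIF subunits differed in both directions. Egln3, a HIF prolyl hydroxylase that is itself induced by HIF, had 4214, 4091 and 4405 in BEC tumour and 11207, 10875 and 11081 in HEC tumour, with no overlap (1.38 ± 0.08, adjusted p = 1.22e-62). Without a tumour its libraries overlapped, at 10067, 10971 and 10451 in BEC normal and 10448, 8652 and 8676 in HEC normal. Egln1, the main sensor in most cells, was called in neither comparison (0.56 ± 0.09 and 0.82 ± 0.09). Epas1, the HIF alpha gene long associated with endothelium, was the member lowest in HECs relative to BECs. It had 8129.9, 7868 and 8014 in BEC normal against 1121, 1392 and 1160.1 in HEC normal, 6.54-fold lower (−2.71 ± 0.09, adjusted p = 1.18e-180). With a tumour it had 3325, 3313 and 3029 in BECs and 1867, 1647 and 1831 in HECs, still without overlap (−0.86 ± 0.09, adjusted p = 8.78e-19). Hif1a differed by 0.44 ± 0.12 and 0.3997 ± 0.12, under the fold threshold. Of the summed TPM of both genes, Hif1a made up 91.1% ± 1.67 in HEC normal and 89.6% ± 0.588 in HEC tumour, against 53.6% ± 3.79 in BEC normal and 78.3% ± 0.331 in BEC tumour. The lowest HEC library, at 89.2%, lay above the highest BEC library, at 78.5%.

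**Figure D3:**
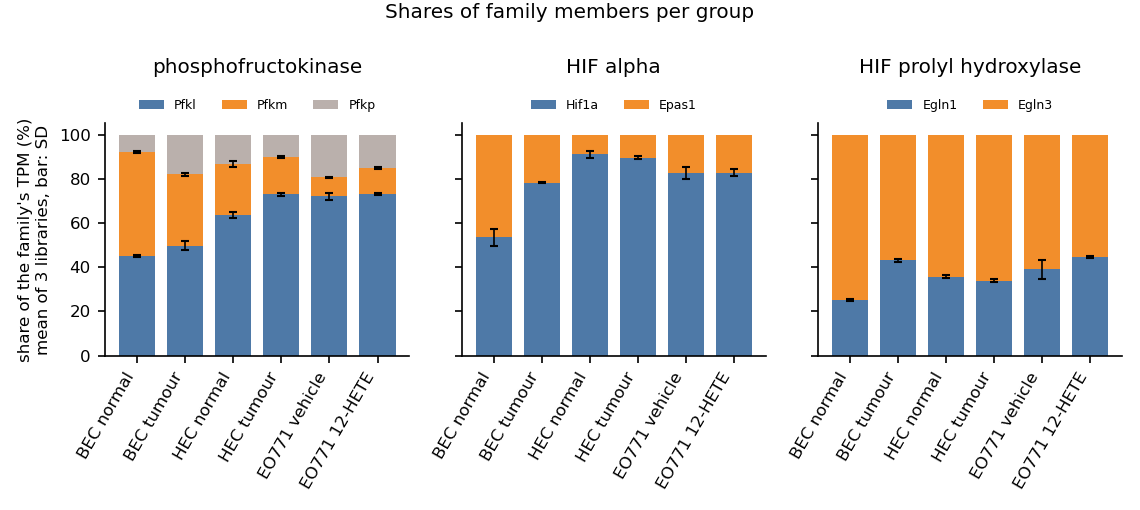
Bars give the share of the summed TPM of each family that a gene takes, as the mean of 3 libraries with the SD drawn at the boundary, in 6 groups. EO771 groups come from a separate table with values of another kind, so their shares are not compared with the endothelial ones. By the merged exon lengths used, Pfkm takes the largest share of phosphofructokinase in BEC normal alone (47.1%), an order that depends on those lengths. Epas1 takes 46.4% of HIF alpha in BEC normal against 8.88% in HEC normal.

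Other shares within enzyme families moved with these genes. Pfkl, the liver form of phosphofructokinase, took 44.9% ± 0.404 of the family's TPM in BEC normal and 63.6% ± 1.204 in HEC normal, while Pfkm took 47.1% ± 0.328 and 22.9% ± 1.36. In BEC tumour the shares were 49.8% ± 2.08 for Pfkl and 32.3% ± 0.748 for Pfkm, with 17.9% ± 1.68 for the platelet form Pfkp. Merged exons were 6675 bases long for Pfkl, 3340 for Pfkm and 13401 for Pfkp. Their longest coding transcripts were 3730, 2879 and 4145 bases, so the order of these shares depends on the length used. Exons of Pfkp overlap Pitrm1 on the opposite strand over 5.6% of their length, and Pitrm1 held 159.86% of the value of Pfkp. Exons of Pfkm overlap other genes too, as given above, so the shares of both are uncertain. Egln3 made up 75.1% ± 0.472 of the summed TPM of Egln1 and Egln3 in BEC normal and 56.97% ± 0.569 in BEC tumour, and 64.2% ± 0.861 and 66.1% ± 0.754 in the HEC groups. Aldoa and Eno1 held at least 99.08% of their pairs with Aldoc and Eno2 in every endothelial library.

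Gapdh, the dehydrogenase often used as a reference gene, needs its near-identical copies counted with it. Copies were transcripts of other genes with at least 95% identity over at least 300 bases, and Gapdh had 77 of them, 74 annotated as pseudogenes. In the endothelial libraries the line of Gapdh held between 2.69% and 6.78% of the sum of Gapdh and its copies. On its own line Gapdh had 9754, 12726 and 8926 in BEC normal and 6184, 11896 and 5897 in HEC normal, which overlapped (−0.39 ± 0.26, adjusted p = 0.188). Added to its copies it had 171376, 187627 and 184076 in BEC normal and 220037, 213755 and 219010.0 in HEC normal. The sum reversed the sign of the uncalled difference, with all HEC libraries above all BEC libraries (0.27 ± 0.06, adjusted p = 5.11e-05). In tumour mice the own line gave −0.44 ± 0.26 and the sum 0.15 ± 0.06, adjusted p = 0.0277. In the EO771 table the copies held 0.4% of the value of Gapdh. Among the other members, copies held 18.46% of the value of Eno1, 9.96% of Pgam1 and at most 3.13% of Gpi1, Tpi1, Pgk1, Pkm and Ldha in the endothelial table. Adding copies ended 2 calls by a small margin, given below, of Bnip3 in BECs and of Ankrd37 in the interaction. This alternative was chosen after the values of the copies were seen.

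Next, tumour and normal samples were compared within HECs and within BECs. In HECs, 0 members were higher and 2 lower with a tumour, beside 4.58% and 3.21% of all genes. At adjusted p under 0.05 whatever the fold, 3 members were higher and 13 lower, beside 16.9% and 18.5% of all genes. At an unadjusted p under 0.05, 6 were higher, beside 20.7% of all genes, and edgeR also called 0 higher. The members' median was −0.147, against 0.019 for all genes. In BECs, 3 members were higher and 8 lower in tumours than in the fat pad, beside 12.4% and 10.8% of all genes, with a median of −0.28 against 0.008. Whatever the fold, 6 were higher and 19 lower at adjusted p under 0.05, beside 26.5% and 27.2% of all genes. Of the 8 called lower, 4 were glycolysis members, none of which was called higher. Markers of other cells also differed between the BEC groups. All 10 myeloid genes were above 0 in BEC tumour, and C1qa was at 0 in BEC normal. The sum of 6 T cell genes was 22.03 to 40.9 CPM in BEC tumour, with none at 0, and 0 to 0.439 in BEC normal, with Cd3d, Cd3e, Cd3g and Cd8a at 0. The fibroblast and pericyte sum went the other way, as given above, with Acta2 the most abundant of its genes in BEC normal. The epithelial and tumour cell sum was higher in BEC tumour, where none of the 7 genes was at 0, while Krt14 and Krt5 were at 0 in BEC normal. The lymphatic endothelial sum was lower in BEC tumour, as given above. The part of these markers in the changes of the members was not tested. Markers of endothelium in general summed to 2719 to 2773 CPM in BEC tumour and 3686 to 3909 in BEC normal.

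Both members called in HECs were HIF targets that had been high in HEC normal. Ndrg1 fell from 41786, 37101 and 35271 in HEC normal to 14506, 13837 and 14147 in HEC tumour (−1.43 ± 0.08, adjusted p = 8.35e-76). Mxi1 fell from 7246, 6156 and 6128 to 1926, 1861 and 1752 (−1.82 ± 0.09, adjusted p = 9.38e-85). Neither gene had overlapping libraries. Bnip3 lay just under the fold threshold (−0.95 ± 0.15, adjusted p = 9.17e-09), past it without HEC normal replicate 2 (−1.03) or replicate 3 (−1.04). Aldoc, at 16.2 to 75.3 normalised values in HECs, was called higher without HEC normal replicate 1 (1.65, adjusted p = 0.0184) or HEC tumour replicate 2 (1.52, adjusted p = 0.0193) or with TMM scaling (1.18, adjusted p = 0.0428), and not in the main test (1.202 ± 0.54, adjusted p = 0.0669). Pdk1 had 4240.5, 3708 and 3403 in HEC normal and 5834, 5693 and 6183 in HEC tumour, apart but under 2-fold (0.64 ± 0.10, adjusted p = 2.37e-09). Epas1 also stood apart, at 0.54 ± 0.10, adjusted p = 1.75e-07. The remaining members differed by between −0.74 and 0.37 on the log2 scale, with none called.

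The lactate genes Slc16a3 and Ldha were both lower in tumour BECs. Slc16a3 fell furthest of all members, from 763, 1105 and 988 in BEC normal to 116, 113 and 128 in BEC tumour, a 7.98-fold drop (−2.997 ± 0.18, adjusted p = 2.14e-57). Ldha fell from 64080.3, 79578 and 74065 to 27485, 31180.2 and 32379 (−1.26 ± 0.09, adjusted p = 5.38e-40). In both genes every tumour library lay below every normal library. Pfkm fell from 7145, 8363 and 7996 to 2497, 2399 and 2567 (−1.65 ± 0.10, adjusted p = 1.38e-65), and Pfkl came close to the threshold (−0.96 ± 0.08, adjusted p = 4.14e-29), passing it without BEC normal replicate 1 (−1.04). Pfkfb4 fell by 1.19 ± 0.36 (adjusted p = 0.00243), from 1195, 649.6 and 1324 to 578, 276 and 539. That call was lost without BEC tumour replicate 2 (−0.92, adjusted p = 0.0233). Pfkfb3 had the opposite sign at 0.95 ± 0.37, adjusted p = 0.0188, and passed the threshold without BEC normal replicate 2 (1.23). Aldoc had 58.2, 22.4 and 51.8 in BEC normal and 84.4, 112 and 95.9 in BEC tumour (1.14 ± 0.52, adjusted p = 0.0533), with no overlap. It was called without BEC normal replicate 1 (1.38, adjusted p = 0.0422), with TMM or upper-quartile scaling and with only the groups compared in the fit.

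HIF pathway genes split in tumour BECs. Car9 rose from 59.1, 61.2 and 59.9 in BEC normal to 272, 334 and 305 in BEC tumour (2.34 ± 0.18, adjusted p = 4.96e-37). Adm rose from 701, 789.6 and 844 to 2191, 2204 and 2122 (1.48 ± 0.11, adjusted p = 1.42e-42). Ndrg1 rose from 2123, 2345 and 2107 to 4993, 5174 and 5435 (1.25 ± 0.08, adjusted p = 2.17e-55). All 3 sat above the normal libraries in every tumour library. Ankrd37 fell from 112, 104 and 76.2 to 32.5, 25.4 and 38.4 (−1.605 ± 0.23, adjusted p = 1.37e-11). Bnip3 fell from 1535, 2029 and 1950.4 to 801, 814 and 814 (−1.18 ± 0.16, adjusted p = 2.23e-13), a call that was lost narrowly when its copies were added (−0.996 ± 0.15, adjusted p = 1.17e-10). Egln3 fell from 10067, 10971 and 10451 to 4214, 4091 and 4405 (−1.31 ± 0.08, adjusted p = 3.12e-56), and Epas1 from 8129.9, 7868 and 8014 to 3325, 3313 and 3029 (−1.31 ± 0.09, adjusted p = 9.30e-45). None of these groups overlapped. Ddit4 was just under the threshold (−0.99 ± 0.09, adjusted p = 2.54e-25), and beyond it without BEC normal replicate 1 (−1.06) or BEC tumour replicate 3 (−1.03). Hif1a had 11711, 8396 and 9440.2 in BEC normal and 12842, 12668 and 11266 in BEC tumour, which overlapped, as did the libraries of Egln1 and Kdm3a.

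**Figure D4:**
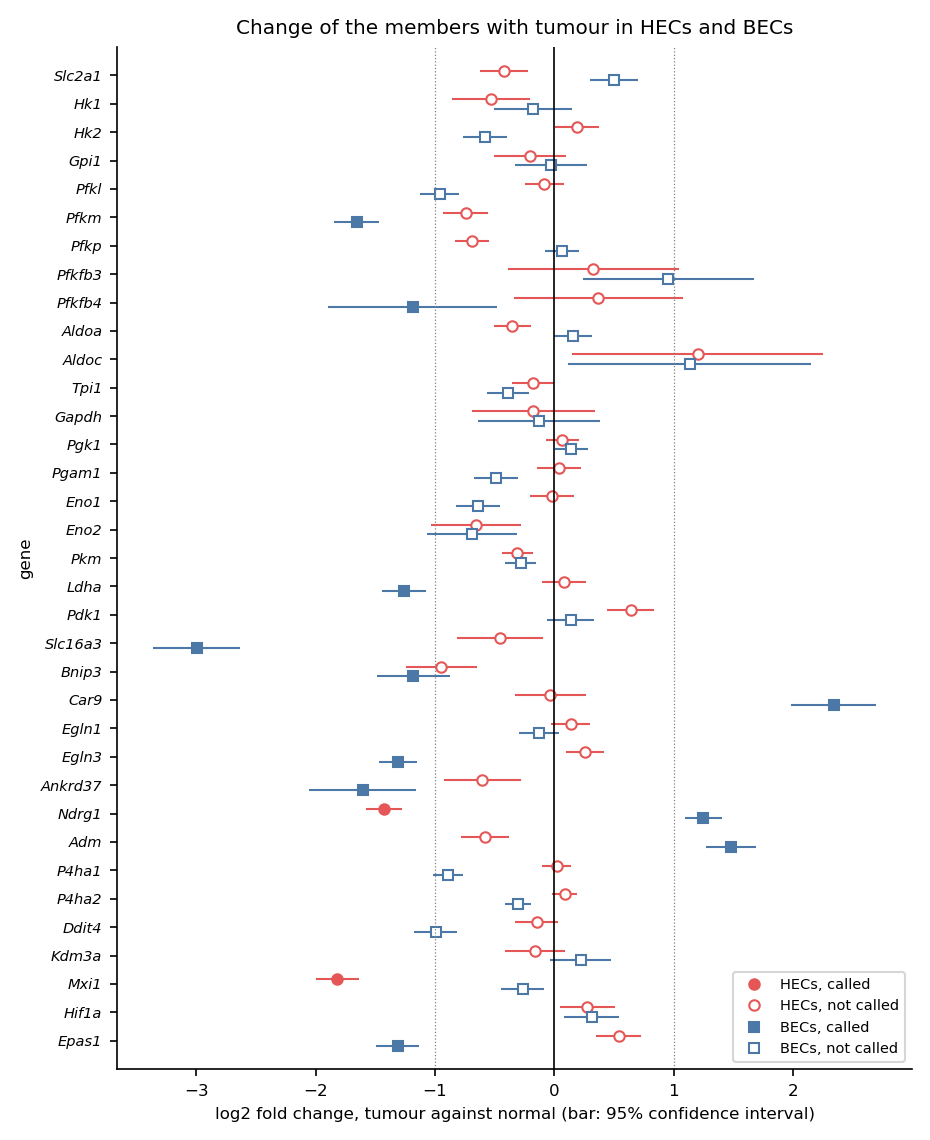
Points give the log2 fold change with tumour of each member in HECs (circles) and BECs (squares), with 95% confidence intervals, filled where called, and dotted lines mark a 2-fold change. Ndrg1, at −1.43 in HECs and 1.25 in BECs, is called in opposite directions, and Slc16a3, at −2.997 in BECs, lies farthest from 0.

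Whether the change with tumour differed between the cell types was tested as an interaction in the same fit. Its value is the log2 change in HECs less that in BECs. It was called higher for 6 members and lower for 4, beside 11.2% and 12.1% of all genes, with a member median of 0.209 against −0.002. At adjusted p under 0.05 whatever the size, 15 were higher and 7 lower, beside 22.9% and 23.8% of all genes. Slc16a3 had the largest positive value (2.54 ± 0.26, adjusted p = 2.90e-21), followed by Epas1 (1.85 ± 0.13, adjusted p = 1.21e-42) and Egln3 (1.56 ± 0.12, adjusted p = 2.03e-40). Pfkfb4 (1.56 ± 0.51, adjusted p = 0.00637) and Ldha (1.34 ± 0.13, adjusted p = 7.35e-23) were called in the same direction. Ankrd37 passed the fold threshold narrowly (1.001 ± 0.28, adjusted p = 0.00122), and 6 of 21 alternatives kept the call. A test against a log2 fold change of 1 did not pass it (adjusted p = 1). Its value dropped under the threshold with the replicate block (0.999), with values divided by their step (0.999), in edgeR (0.93), with the copies of other members added, with TMM or upper-quartile scaling, without the filter on low values, and without BEC normal replicate 1 or 2, BEC tumour replicate 2, HEC normal replicate 2 or 3, or HEC tumour replicate 1 or 3, the lowest value being 0.85. Most negative were Ndrg1 (−2.67 ± 0.11, adjusted p = 6.51e-130), Car9 (−2.37 ± 0.24, adjusted p = 1.47e-22) and Adm (−2.06 ± 0.15, adjusted p = 6.83e-43), then Mxi1 (−1.55 ± 0.13, adjusted p = 4.55e-31). Of these 4, Ndrg1 was called in both cell types, Car9 and Adm in BECs, and Mxi1 in HECs. Pfkm passed the fold threshold only without HEC normal replicate 1 (1.01), and Pfkfb3 only without HEC normal replicate 2 (−1.01).

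Genes that respond to the handling of tissue also differed between the groups. The sum of 11 immediate early and dissociation genes was 567 to 626 CPM in BEC normal and 614 to 656 in BEC tumour. It was 1265 to 1374 in HEC normal and 1487 to 1504 in HEC tumour, with none of the genes at 0. Its part in the differences between HECs and BECs was not tested.

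The last question was how 12-HETE changed these genes in EO771 cells. Of the 35 members, 33 passed the filter on low values, a mean of at least 10. Car9 was under it at 5 to 12 counts, as was Adm, with 8.91, 8.6002 and 3.07 normalised counts in vehicle and 2.05, 1.97 and 0.984 in 12-HETE libraries. Among the 33, 0 were called higher and 5 lower, where 2.38% of the 11602 genes tested were called higher and 7.79% lower. At adjusted p under 0.05 whatever the fold, 0 members were higher and 13 lower, beside 22.7% and 24.2% of all genes. At an unadjusted p under 0.05, 0 were higher, beside 26.1% of all genes, and edgeR also called 0 higher. The members' median was −0.256, against 0.001, and 16 had all 12-HETE libraries below all vehicle libraries, as did 30.5% of all genes. 4 of the 5 were HIF targets and 1 was a glycolysis gene. Replicate numbers paired these libraries by the correlation of their deviations, and with the replicate as a block 4 of the 5 calls were made.

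Bnip3 fell furthest, from 722, 860.0 and 531 normalised counts with vehicle to 174, 93.6 and 87.6 with 12-HETE, 5.96-fold lower (−2.58 ± 0.27, adjusted p = 1.71e-19). Ndrg1 fell from 3609, 2746 and 2093 to 599.7, 531 and 517 (−2.36 ± 0.19, adjusted p = 4.04e-33). Ddit4 fell from 3049.8, 3885 and 2619 to 798, 796 and 767 (−2.02 ± 0.15, adjusted p = 1.58e-37). In these genes every 12-HETE library lay below every vehicle library. Aldoc, the brain-type aldolase, fell from 244, 197 and 134 to 48.3, 43.4 and 44.3 (−2.08 ± 0.28, adjusted p = 8.76e-13), while Aldoa, at 3219 ± 357 TPM against 11.1 ± 2.92 for Aldoc with vehicle, differed by −0.51 ± 0.12, adjusted p = 1.24e-04. Ankrd37 had 52.4, 55.4 and 26.6 with vehicle and 23.6, 21.7 and 18.7 with 12-HETE (−1.07 ± 0.41, adjusted p = 0.021). Its call was lost with the replicate block (−1.02, adjusted p = 0.0974) and without each single library other than vehicle replicate 3, at adjusted p between 0.0649 and 0.124. Without vehicle replicate 3 it was −1.34, adjusted p = 0.00388.

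**Figure D5:**
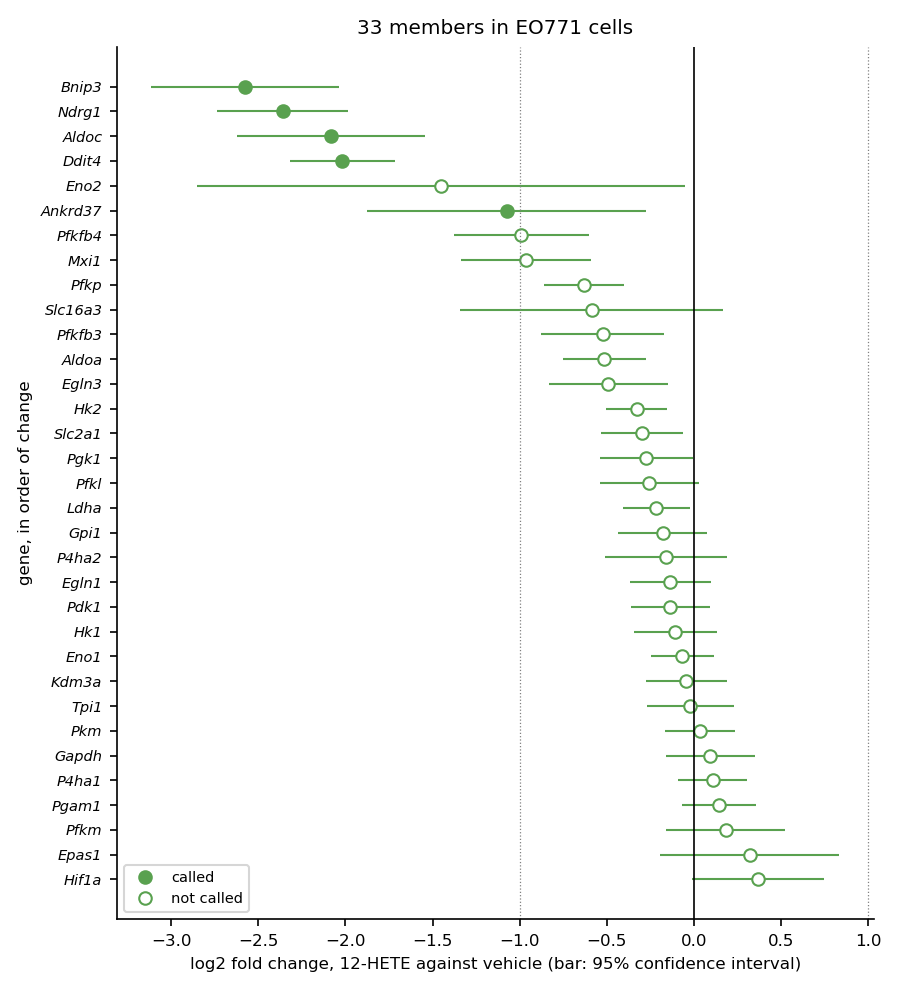
Each point is the log2 fold change of a member with 12-HETE against vehicle in EO771 cells, with its 95% confidence interval, sorted by size and filled where called. Of 33 members, 26 lie below 0, and the 5 called lower run from Bnip3 at −2.58 to Ankrd37 at −1.07.

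Members just under the threshold in EO771 cells were Pfkfb4 and Mxi1. Pfkfb4 had 534, 341 and 453 with vehicle and 251, 199 and 219 with 12-HETE (−0.99 ± 0.20, adjusted p = 3.63e-06), and was called without vehicle replicate 2 (−1.15) or 12-HETE replicate 1 (−1.08). Mxi1 had 554, 482 and 357 with vehicle and 265, 226 and 223 with 12-HETE (−0.96 ± 0.19, adjusted p = 3.12e-06), and was called without vehicle replicate 3 (−1.12) or 12-HETE replicate 1 (−1.05). Eno2, at 2.95 to 21.5 normalised counts, was called without 12-HETE replicate 1 alone (−2.48, adjusted p = 0.0186). Among the abundant enzymes of the lower pathway, Tpi1, Gapdh, Pgk1, Pgam1, Eno1 and Pkm lay between −0.27 and 0.14, none at adjusted p under 0.05. Ldha was at −0.22 ± 0.10, adjusted p = 0.0563. Hif1a had 2192, 1472 and 2669 with vehicle and 2629, 2684 and 2853 with 12-HETE, and their libraries overlapped. Epas1 had 517, 242 and 532 with vehicle and 558, 556 and 496 with 12-HETE. In both HIF genes vehicle replicate 2 was the lowest library, and neither difference passed the test. Hif1a made up 82.6% ± 2.57 of their summed TPM with vehicle and 82.8% ± 1.52 with 12-HETE.

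Other lists moved between the EO771 groups as well. The 11 immediate early and dissociation genes summed to 1965 to 2141 CPM with vehicle and 476 to 489 with 12-HETE, with Hspa1b at 0 in both groups and Hspa1a at 0 with vehicle. The 7 epithelial and tumour cell genes summed to 3243 to 4251 CPM with vehicle and 2184 to 2240.3 with 12-HETE, with none at 0. The 9 fibroblast and pericyte genes, nearly all of it Dcn, summed to 390.5 to 614 CPM with vehicle and 998 to 1037 with 12-HETE, with Lum at 0 in both groups. Their part in the fall of the members was not tested.

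Among 40 other genes of glucose metabolism, such as rarer isozymes, mitochondrial pyruvate carriers and enzymes of gluconeogenesis, 34 were tested in the endothelial table and 27 in EO771. Their counts stand beside the shares of all genes called higher and lower, which were 17.1% and 15.1% between cell types without a tumour, 11.2% and 10.7% with one, 4.58% and 3.21% with tumour in HECs, 12.4% and 10.8% in BECs, 11.2% and 12.1% for the interaction, and 2.38% and 7.79% with 12-HETE. The medians of all genes were between −0.002 and 0.019 in every comparison. In mice without tumours 6 were higher and 7 lower in HECs than in BECs, with a median log2 fold change of −0.398. Values in pairs are mean normalised values of the first group against the second, and single values are log2 fold changes with their SE. The lowest were Ldhb, the lactate dehydrogenase subunit of oxidative tissues (15.3 against 2036), Fbp2 (5.42 against 321) and Fbp1 (42.8 against 1969.9), which reverse the phosphofructokinase step. The error of Fbp2 was wide (−5.89 ± 2.47). The highest were Slc2a4, the insulin-responsive glucose transporter (189 against 6.16), Eno3 (7807 against 2026) and Pgm1, which links glucose to glycogen (16167 against 5365). With a tumour 4 were higher and 3 lower in HECs (median −0.274). The lower ones were Hk3 (1.54 against 1721, −10.15 ± 2.00), Ldhb (7.79 against 289) and Slc2a3 (6.22 against 57.6). Pck1 (149.6 against 4.95) and Fbp1 (65.04 against 2.26) were among the higher ones. In HECs, the called genes were Pck2 (−1.19 ± 0.13) and Slc2a8 (−1.05 ± 0.08), both lower with a tumour (list median −0.094). In BECs, 5 rose and 6 fell (median 0.034). Hk3 (1721 against 38.2), a hexokinase of myeloid cells, Slc2a4 (71.5 against 6.16) and Galm (3986 against 1503) rose most. Fbp1 (2.26 against 1969.9) and Fbp2 (3.602 against 321) were among those that fell most. Errors were wide for Hk3 (5.49 ± 1.88) and Fbp2 (−6.48 ± 2.48). The interaction, with a median of 0.057, was called higher for 6, Fbp1 and Pck1 among them. It was called lower for 7, led by Hk3 (−7.79 ± 2.77), Slc2a4 and Galm (−1.71 ± 0.14). In EO771 cells, the called genes were Hkdc1 (24.002 against 88.7, −1.89 ± 0.38) and Pck2 (−1.12 ± 0.15), both lower with 12-HETE (list median −0.167).

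Of 39 other hypoxia genes, 38 were tested in the endothelial table and 31 in EO771. The same shares of all genes stand beside their counts. In mice without tumours 8 were higher and 7 lower in HECs (median 0.02). Lox, which crosslinks collagen (10.97 against 6709, −9.26 ± 1.30), Vldlr (10.04 against 2418) and Stc2 (7.12 against 332, −5.55 ± 0.95) were lowest. Bhlhe41, a repressor of clock genes (3519 against 500.3), Ccng2 (7482 against 1509.6) and Pgf, a ligand of the VEGF family (8904 against 2291), were highest. With a tumour 12 were higher and 6 lower in HECs (median 0.308). Pgf (3.38 ± 0.21) and Stc1 (2.21 ± 0.19) led the higher ones. Lox (−4.64 ± 1.29), Stc2 (−3.75 ± 1.16) and Vldlr (−3.42 ± 0.32) led the lower ones. Tumour status in HECs raised 3, among them Vldlr (45.7 against 10.04) and the transferrin receptor Tfrc (6536 against 3155), and lowered 2, Ccng2 (−1.499 ± 0.10) and Stc1 (−1.35 ± 0.17), with a list median of −0.18. In BECs, 13 of the 38 fell and 2 rose, with a median of −0.442. Those that fell most were Ak4, a mitochondrial adenylate kinase (30.6 against 691), Stc2 (19.6 against 332) and Stc1 (113 against 1318), and Bhlhe41 (1.77 ± 0.11) and Rbpj (1.003 ± 0.08) rose. The interaction, with a median of 0.605, was called higher for 13, led by Lox (4.62 ± 1.84), Ak4 (4.56 ± 0.43) and Vldlr. It was called lower for 4, led by Bhlhe41 (−2.08 ± 0.15), Ccng2 (−1.78 ± 0.14) and Rbpj (−1.51 ± 0.11). In EO771 cells, 7 of 31 fell with 12-HETE (list median −0.292). Among them, Cited2, which competes with HIF for its coactivator, fell from 3276 to 941 (−1.7996 ± 0.11) and Vegfa, the vessel growth factor, from 2093 to 619 (−1.76 ± 0.16). Only Tfrc was called higher, at 5692 against 1325 (2.104 ± 0.20).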

How the data were processed

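RNA was measured in 12 endothelial and 6 EO771 libraries. The authors sorted the cells, aligned the reads with STAR to GRCm38, counted them over genes with featureCounts and tested with DESeq2, and the strand setting is not given in the sources used here. Methods and labels name different library kits. The EO771 table was deposited by the authors as raw counts per gene. The endothelial table was deposited as whole numbers too, but they pile up at multiples of a step (median 3.748), so they are treated as estimated counts whose relation to reads the authors do not give. Totals per library were 56410964 to 79357993 and 17294591 to 18624179. As 1 endothelial unit is less than 1 read, the first range is not a read depth and cannot be compared with the second. Divided by the step of each library, the endothelial totals spanned a range that held all EO771 totals. The precision of low genes such as Ankrd37 is set by the reads and not by these endothelial sums.

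DESeq2 1.42.0 (R 4.3.3) fitted each table on its own to genes with a mean of at least 10, with two-sided Wald tests and Benjamini-Hochberg adjustment over all genes tested. The endothelial fit used all 12 libraries, and the interaction came from the same fit. Calls needed an adjusted p under 0.05 and a log2 fold change over 1 in size. All 35 members are accounted for in each comparison, and of 2 further lists the 3 called genes with the largest change in each direction are named, apart from some not reported here. Members and lists were chosen with earlier results of these data known. Aldoa stands on a second line in each table (42 to 147 and 21 to 88 per library), and the larger line was used. Exon lengths, overlaps and copies came from GENCODE M21, in which 260 endothelial identifiers and 230 EO771 symbols were not found. Promoters came from RefSeq. The scripts were tested on simulated data. The alternatives were edgeR 4.0.16, TMM and upper-quartile scaling, no filter, other thresholds, only the groups compared, the replicate as a block, each library left out, values divided by the step, and copies added.

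In EO771, deviations from the group means correlated between same-numbered libraries at 0.111, 0.173 and 0.328, so the numbers were taken to pair them. The pairing comes from the data, since the labels do not state it. The main fit did not use it, and it enters only as the replicate block among the alternatives. In an exact permutation test of 3 against 3 libraries the smallest two-sided p is 0.1, so no such test was used.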

Additional observations from a re-analysis of the deposited data

Results flagged for a closer look

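For 10 members the log2 change with tumour in HECs differed from that in BECs in the interaction test of DESeq2 (adjusted p under 0.05, difference over 1 in size). The change in HECs exceeded that in BECs by 2.54 for the lactate exporter Slc16a3, 1.85 for Epas1, 1.56 for the hydroxylase Egln3, 1.56 for Pfkfb4, 1.34 for Ldha and 1.001 for Ankrd37. In these 6 genes the value in BECs was called lower in tumours, at −2.997, −1.31, −1.31, −1.19, −1.26 and −1.605 in the same order, and none was called in HECs. The change in HECs was below that in BECs for Ndrg1 (−2.67), Car9 (−2.37), Adm (−2.06) and Mxi1 (−1.55). Car9 and Adm were called higher with tumour in BECs only, and Mxi1 was called lower in HECs only. Ndrg1 had opposite called changes, −1.43 in HECs and 1.25 in BECs. With 3 libraries a group, no test for single outlying libraries was made.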

How the results depend on the processing

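Of 196 counts of called members recomputed under an alternative, 181 stayed within 1.5 times the main count, and no member's call changed direction in any alternative run. Taken for each member, comparison and alternative, 3202 results stayed the same and 36 lost a call. Another 100 gained a call, many of them because the fold threshold was dropped, and 66 changed sign while not called. Without a fold threshold the members higher and lower were 19 and 5 for HEC normal against BEC normal, 23 and 3 for HEC tumour against BEC tumour, 3 and 13 with tumour in HECs, 6 and 19 with tumour in BECs and 15 and 7 for the interaction, and 13 were lower with 12-HETE, each beside the share of all genes given in the report. A test against a log2 fold change of 1 left 4 lower in BECs and 3 higher in the interaction. Between cell types that test did not call Aldoa (adjusted p = 0.534), Bnip3 (0.0866), Kdm3a (0.509) or Pfkfb4 (0.275) without a tumour. Nor did it call Ldha (0.166) or Pdk1 (0.216) with one. Calls lost with tumour in BECs were those of Ldha (0.0509), Ankrd37 (0.0694), Bnip3 and Pfkfb4. In the interaction they were those of Ldha (0.0973), Pfkfb4 and Ankrd37, and with 12-HETE that of Ankrd37. The count higher with tumour in HECs was 1, Aldoc, with TMM scaling, and between 0 and 1 when single libraries were left out, with 1 without HEC normal replicate 1 or without HEC tumour replicate 2. With the replicate block the counts higher and lower were 9 and 4, 8 and 0, 0 and 2, 4 and 8, 5 and 4, and 0 and 4 in the order of the report. In endothelial cells same-numbered libraries correlated at −0.028 to 0.126, and such weak values cannot tell whether they share more than a number. There the block added Aldoc in BECs and took Ankrd37 from the interaction. In EO771 the block changed no call other than that of Ankrd37. Other scalings moved the median of all genes by at most 0.06 on the log2 scale. Genes with few reads, such as Aldoc, Eno2 and Ankrd37, limit what the depth can show.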

Other observations

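The members called in no comparison include most enzymes between fructose phosphate and pyruvate, namely Tpi1, Gapdh, Pgk1, Pgam1, Eno1, Eno2 and Pkm, and also Hk1, Hk2, Gpi1, Pfkl, Pfkp, Pfkfb3, Egln1, P4ha1, P4ha2 and Hif1a. Some of these differed at adjusted p under 0.05. Eno1 had 65482, 86304 and 83921 in BEC normal and 48805, 51947 and 50570.3 in BEC tumour (−0.64 ± 0.10, adjusted p = 1.64e-10), and Pgam1 differed by 0.86 ± 0.09, adjusted p = 4.90e-19 between HEC tumour and BEC tumour. Neither pair of groups overlapped.

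Hk1, the hexokinase that most cells carry, made up 85.1% ± 1.69 of the summed TPM of Hk1 and Hk2 in HEC normal and 77.8% ± 0.503 in HEC tumour, against 80.1% ± 2.02 in BEC normal and 84.1% ± 2.63 in BEC tumour. In EO771 cells it made up 53.7% ± 2.92 with vehicle and 57.6% ± 0.732 with 12-HETE. The EO771 and endothelial tables hold values of different kinds, so shares were not compared between them. Pfkl took 72.03% ± 1.75 of the phosphofructokinase TPM in EO771 cells with vehicle and 73.1% ± 0.58 with 12-HETE, and Pfkp, whose exons overlap Pitrm1, took 19.3% ± 1.84 and 14.97% ± 0.665. Summed over the 21 glycolysis members, EO771 libraries held 12833, 11894 and 10400.3 CPM with vehicle and 10257, 9999 and 9675 with 12-HETE. The 14 hypoxia members summed to 1078, 1066 and 909 CPM with vehicle and 735, 677 and 674 with 12-HETE.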
